A study of Mus musculus with 15 samples.

Results

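Expression of 10 genes activated by the transcription factor p53 was followed in crypts of the mouse small intestine: Mdm2, Ccng1, Zmat3, Phlda3, Aen, Trp53inp1, Bax, Bbc3, Fas and Perp. They were found through the RefSeq accession that each array probe carries, and make up 10 of the 20144 genes named on the array. All 10 were present, on 12 probes, with 2 probes each for Aen and Trp53inp1. Crypts are pits of the gut epithelium where stem cells, their dividing progeny and Paneth cells reside. They came from mice 6 to 8 weeks old, 24 h after antibody treatment. The N1N2 plus Lrp6 group received blocking antibodies to the receptors Notch1 and Notch2 together with 30 mg/kg of a blocking antibody to Lrp6, which acts with Frizzled as a receptor of Wnt ligands. The N1N2 group received the Notch1 and Notch2 antibodies without the Lrp6 antibody, and the control group an IgG antibody, although the series text calls the controls untreated. Both Notch-blocked groups had the Notch antibodies at a labelled 1 mg/mL, which is a concentration, so the amount per animal is unknown. Each group had 5 arrays, described as biological replicates, without a statement of how many mice each stands for, of strain or of sex. Every array measured crypt RNA in red against a common mouse reference RNA in green, and each value below is a log2 ratio of crypt over reference for 1 probe.

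The protein p53, encoded by Trp53 in mice, is held low in most cells because the ubiquitin ligase Mdm2 marks it for degradation. DNA damage and other stresses free it from Mdm2, and it then binds paired decamer half-sites in DNA and raises genes of growth arrest, repair and cell death. Mdm2 is itself such a target, which closes a negative feedback loop. In the intestine this response is best known from irradiated crypts, where p53 and its target Bbc3 take part in the early death of crypt cells. Notch signalling keeps crypt progenitors dividing and away from secretory fates, and Wnt signalling maintains the stem cells.

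The promoters of the pair of genes whose level changed, Mdm2 and Ccng1, are shown for the p53 half-site they hold. Promoter windows of 300 bases, 250 before and 50 after an annotated start, were available from RefSeq (GRCm38.p6) for 7 of the 10 genes, in 10 windows. Capitals mark the match to the p53 half-site, and both windows are read 5′ to 3′ on the minus strand, Mdm2 at chr10:117710709-117711008 and Ccng1 at chr11:40755237-40755536.
Mdm2: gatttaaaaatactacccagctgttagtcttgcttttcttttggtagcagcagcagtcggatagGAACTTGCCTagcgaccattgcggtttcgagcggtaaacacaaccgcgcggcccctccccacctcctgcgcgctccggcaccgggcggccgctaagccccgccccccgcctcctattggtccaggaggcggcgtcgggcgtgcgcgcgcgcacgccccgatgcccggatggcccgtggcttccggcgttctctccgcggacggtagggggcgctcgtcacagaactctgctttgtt
Ccng1: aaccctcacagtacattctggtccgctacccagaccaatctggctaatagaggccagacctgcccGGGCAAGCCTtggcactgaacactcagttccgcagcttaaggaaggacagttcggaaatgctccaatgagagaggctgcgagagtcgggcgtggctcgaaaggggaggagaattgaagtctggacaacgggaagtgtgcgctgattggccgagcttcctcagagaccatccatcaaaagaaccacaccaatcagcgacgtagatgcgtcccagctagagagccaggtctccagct
The half-site lay at -186 to -177 from the start in Mdm2 and at -185 to -176 in Ccng1. Aen held 1 as well, in both of its windows, and so did Bax at -201 to -192. Half-sites were found in 8.36% of the 32851 promoter windows of the table, on either strand, the pattern being its own reverse complement. The p53 element best described for Mdm2 lies in the first intron, outside such a window. The core letters bound by RBPJ, the DNA-binding partner of Notch (TGGGAA, 25.6% of windows), and by the TCF/LEF factors of the Wnt pathway (CTTTGA, 16% of windows) were searched on both strands. Neither was in the Mdm2 or Ccng1 window. RBPJ core letters were in windows of Aen, Bax and Fas, and TCF/LEF core letters in windows of the same 3 genes, where in Bax they overlapped the half-site. No half-site or core letters were found in the windows of Phlda3 and Bbc3. These are matches of letters and not shown binding sites.

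All 12 probes were well above background in the crypt channel on all 15 arrays, and no spot was saturated. The share of all spots well above background was lower in the N1N2 plus Lrp6 group, at 57.2% to 73.6%, against 70.1% to 77.2% in the N1N2 group and 71.1% to 79.8% in controls. Of the 6 slides, 1 carried both N1N2 arrays (replicates 1 and 2) and control arrays (replicates 4 and 5). N1N2 replicate 3 was alone on its slide and was the only array scanned on a different day. The N1N2 plus Lrp6 arrays shared no slide with another group, so for them slide and treatment cannot be told apart. As a check of the tissue, 11 markers of crypt and intestinal epithelium averaged log2 ratios of 4.77 to 5.37 in N1N2 plus Lrp6 arrays, 5.18 to 5.67 in N1N2 arrays and 5.19 to 5.34 in controls. Of these 11, 1 rose in N1N2 against control crypts, beside 6.2% of all probes upward. In N1N2 plus Lrp6 against N1N2 crypts 1 fell, beside 6.87% downward. Both were Krt18, at 0.83 (adjusted p = 9.5e-05 in limma) and -0.58 (adjusted p = 0.0019). In N1N2 plus Lrp6 against control crypts 1 fell, beside 0.161%, and this was Lgr5. It averaged 1.43 in N1N2 plus Lrp6, 2.09 in N1N2 and 2.64 in control crypts, and did not pass in the comparisons with N1N2 crypts. The mean of 13 stromal and muscle markers was -3.76 to -3.16 in N1N2 plus Lrp6 arrays, -3.12 to -2.76 in N1N2 arrays and -2.96 to -2.30 in controls. Of the 13, 0 rose and 5 fell in N1N2 plus Lrp6 against N1N2 crypts, beside 9.67% of all probes upward and 6.87% downward. Against control crypts 0 rose and 2 fell in N1N2 crypts, Dcn by 1.38 and Lum by 1.27 on the log2 scale, beside 6.2% of all probes upward and 5.23% downward. In N1N2 plus Lrp6 against control crypts 0 rose and 2 fell, beside 0.197% upward and 0.161% downward. There 10 of the 13 had an unadjusted p under 0.05 in limma, beside 12.8% of all probes, and the median change of the 13 was -0.69. The mean of 12 immune markers was 1.60 to 1.86 in N1N2 plus Lrp6 arrays, 1.54 to 2.06 in N1N2 arrays and 1.87 to 2.24 in controls. Of these 12, 0 rose and 2 fell in N1N2 against control crypts, Cd3e by 0.64 and Gzma by 0.77 on the log2 scale, beside 6.2% of all probes upward and 5.23% downward. There 7 had an unadjusted p under 0.05 in limma, beside 26.4% of all probes. Among these 7, Itgam was higher in N1N2 crypts, by 0.78 (adjusted p = 0.16), and the others were lower. In N1N2 plus Lrp6 against N1N2 crypts 0 passed, beside 16.5% of all probes, and 1 had an unadjusted p under 0.05, beside 29.1%. The part of such cells in the values below was not tested. Since these are bulk samples, fewer cells of a type and less RNA per cell cannot be told apart.

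Mdm2 and Ccng1 changed, in opposite directions, and the other 8 p53 target genes passed the test in no comparison. In N1N2 crypts against control crypts, Mdm2 rose and Ccng1 fell past an adjusted p of 0.05, which is 2 of the 10 genes. In the same comparison 11.4% of all 28488 probes passed, 6.2% upward and 5.23% downward. With the Lrp6 antibody added to the Notch antibodies, against N1N2 crypts, Mdm2 fell and Ccng1 rose, again 2 of 10, beside 16.5% of all probes, 9.67% upward and 6.87% downward. Between N1N2 plus Lrp6 and control crypts 0 of the 10 genes passed in limma, 1 (Bax) had an unadjusted p under 0.05, beside 12.8% of all probes, and 0.358% of all probes passed, 0.197% upward and 0.161% downward. The 5 arrays of a group lay wholly above or below those of the other for the same 2 genes in N1N2 plus Lrp6 against N1N2 crypts, beside 9.99% of all probes, 6.23% above and 3.75% below. They did so in N1N2 against control crypts for Mdm2, which lay above, and Ccng1, which lay below, beside 12.2% of all probes, 5.83% above and 6.33% below. Between N1N2 plus Lrp6 and control crypts the arrays overlapped for all 10 genes, beside 2.62% of all probes without overlap, 1.53% above and 1.09% below. The comparisons of N1N2 plus Lrp6 with N1N2 crypts and of N1N2 with control crypts use the same N1N2 arrays, so a value shared by those arrays enters them with opposite signs. The median change over the 10 genes was -0.02 in N1N2 plus Lrp6 against N1N2 crypts, -0.05 in N1N2 plus Lrp6 against control crypts and 0.02 in N1N2 against control crypts, where the medians over all probes were 0.00, 0.01 and -0.01. The plot of the values by array shows every probe in every sample.

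**Figure D1:**
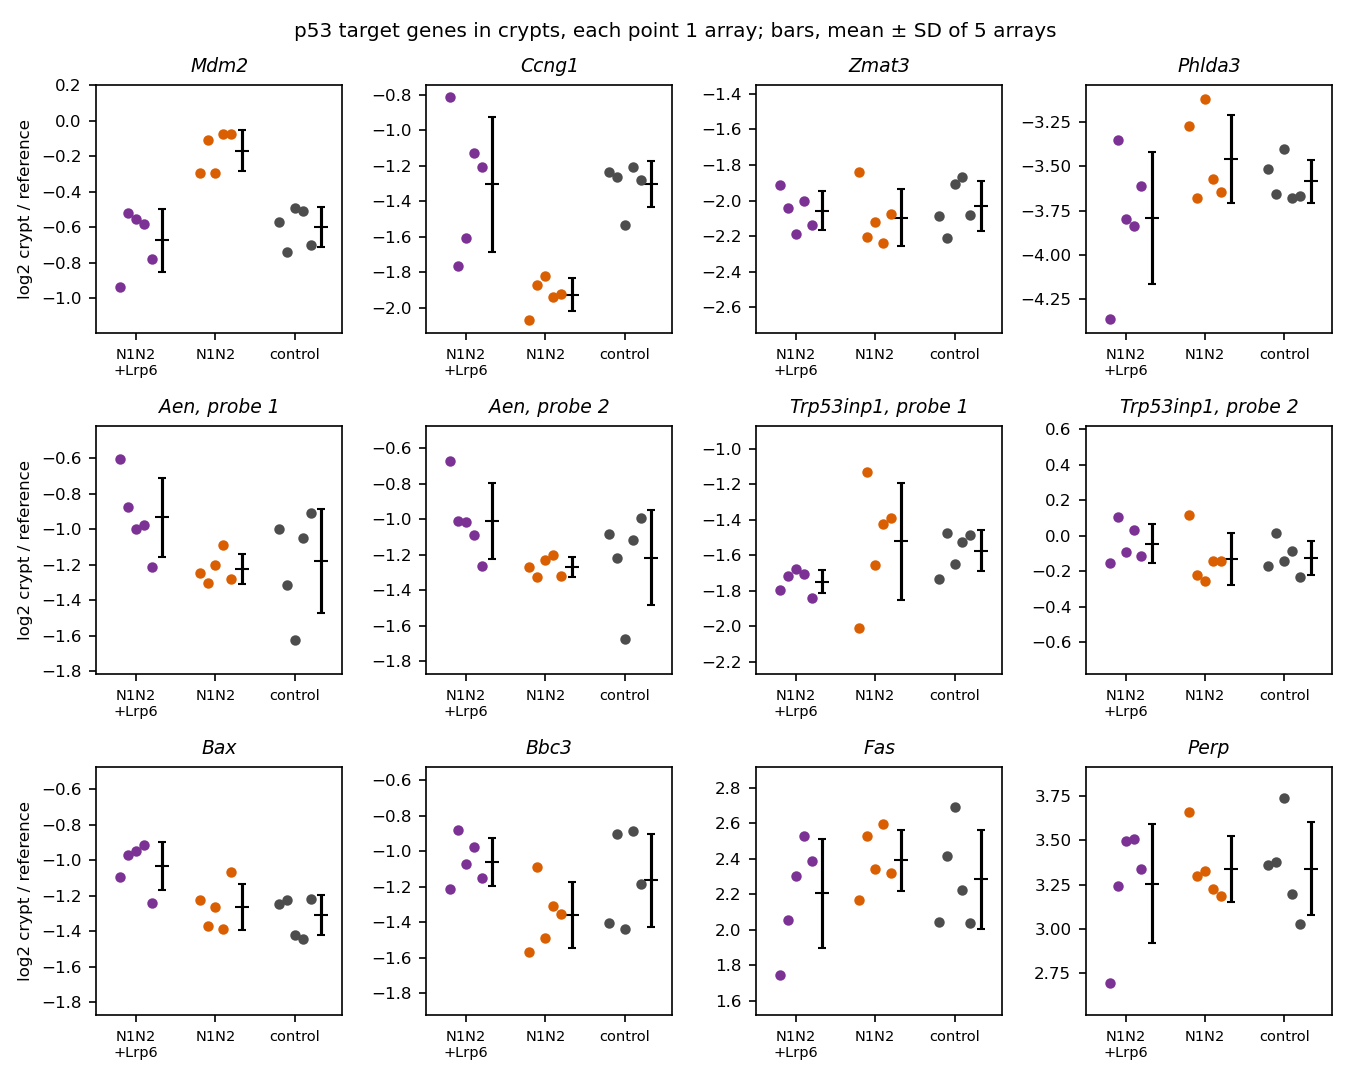
Log2 ratio of crypt over reference RNA (y axis, all panels spanning the same range of log2 units) for the 12 probes of the 10 p53 target genes. Each point is 1 array, in the N1N2 plus Lrp6, N1N2 and control groups from left to right, and the bars give mean ± SD of 5 arrays. The N1N2 arrays stand apart from both other groups for Mdm2 (above) and Ccng1 (below), and the groups overlap for the other 10 probes.

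Mdm2, the ubiquitin ligase that holds p53 in check, had log2 ratios of -0.94, -0.52, -0.56, -0.58 and -0.78 in N1N2 plus Lrp6 crypts. They were -0.29, -0.11, -0.30, -0.07 and -0.08 in N1N2 crypts, and -0.57, -0.74, -0.49, -0.51 and -0.70 in control crypts. All 5 N1N2 arrays lay above all 10 others, and the N1N2 plus Lrp6 and control arrays overlapped. The means were -0.67 ± 0.18 with N1N2 plus Lrp6, -0.17 ± 0.12 with N1N2 and -0.60 ± 0.11 in controls (SD, n = 5 each). The order of the groups was therefore N1N2, control, N1N2 plus Lrp6, of which the last pair did not differ beyond its spread. Mdm2 was higher by 0.43 in N1N2 than in control crypts (SE 0.091, 95% interval 0.24 to 0.62, adjusted p = 0.0073 in limma), a 1.35-fold difference. It was lower in N1N2 plus Lrp6 than in N1N2 crypts, with a change of -0.50 (SE 0.091, 95% interval -0.70 to -0.31, adjusted p = 0.0024), or 1.42-fold. The difference between N1N2 plus Lrp6 and control was -0.07 (95% interval -0.27 to 0.12, adjusted p = 0.778).

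The size of the Mdm2 change depended on how the dyes were balanced within an array. With each array centred on its median in place of the intensity-dependent loess curve, the change was -0.18 in N1N2 plus Lrp6 against N1N2 crypts (adjusted p = 0.493) and 0.15 in N1N2 against control crypts (adjusted p = 0.566), and neither passed. On the slide that held both groups, the N1N2 arrays read -0.29 and -0.11 and the control arrays -0.51 and -0.70, without overlap. The change within that slide was 0.40, close to the 0.43 over all arrays, with an adjusted p of 0.328 for slide as a block and 0.282 for that slide alone, where 4 arrays inform the difference.

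Ccng1 encodes cyclin G1, a partner of protein phosphatase PP2A that acts on Mdm2. Its log2 ratios were -0.82, -1.77, -1.61, -1.13 and -1.21 in N1N2 plus Lrp6 crypts. They were -2.07, -1.87, -1.82, -1.94 and -1.93 in N1N2 crypts, and -1.24, -1.26, -1.53, -1.21 and -1.28 in control crypts. All 5 N1N2 arrays lay below all 10 others, although N1N2 plus Lrp6 replicate 2 came close to them. The means were -1.31 ± 0.38 with N1N2 plus Lrp6, -1.93 ± 0.093 with N1N2 and -1.31 ± 0.13 in controls (SD, n = 5 each), so that the spread was widest in the N1N2 plus Lrp6 group. Replicates 1 and 2 of that group held its highest and lowest values. Replicate 1 also had the lowest share of spots well above background of all arrays, at 57.25%. The N1N2 group was lowest, and the other groups did not differ beyond their spread. Ccng1 changed by -0.62 in N1N2 against control crypts (SE 0.14, 95% interval -0.92 to -0.32, adjusted p = 0.011), a 1.54-fold lower level. The change in N1N2 plus Lrp6 against N1N2 crypts was 0.62 (SE 0.14, 95% interval 0.32 to 0.92, adjusted p = 0.0083), a 1.54-fold higher level. Between N1N2 plus Lrp6 and control crypts the 95% interval of the difference was -0.30 to 0.30 (adjusted p = 0.999).

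Unlike Mdm2, Ccng1 kept its call in N1N2 plus Lrp6 against N1N2 crypts under all 23 alternatives run, at 0.47 to 0.79 with adjusted p-values from 0.00062 to 0.032. In N1N2 against control crypts it missed the threshold with median centring, at -0.81 (adjusted p = 0.055). Within the shared slide the N1N2 arrays read -2.07 and -1.87 and the control arrays -1.21 and -1.28, a change of -0.73 with an adjusted p of 0.286 for slide as a block and 0.130 for that slide alone. The plot of both genes under the alternatives shows these values.

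Most of 12 cell cycle genes changed with the sign of Ccng1, opposite to that of Mdm2. Their mean log2 ratio was -1.31 to -0.69 in N1N2 plus Lrp6 arrays, -2.04 to -1.68 in N1N2 arrays and -1.52 to -1.05 in control arrays. Of the 12, 11 rose and 0 fell in N1N2 plus Lrp6 against N1N2 crypts, beside 9.67% of all probes upward. Against control crypts, 9 fell and 0 rose in N1N2 crypts, beside 5.23% of all probes downward, and Mki67 at 0.13, Ccne1 at -0.04 and Top2a at -0.47 did not pass. The part of dividing cells in the values of Ccng1 or Mdm2 was not tested. Ccng1 had the widest range of group means of the 10 genes, and the genes most like it over the 15 arrays were Nxt2 (Pearson r = 0.967), Rgn (0.966) and Apoo (0.965). These correlations are a description, over arrays that share their groups and slides.

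Zmat3, an RNA-binding zinc finger protein, varied least. Its log2 ratios were -2.19 to -1.91 with a median of -2.04 in N1N2 plus Lrp6 crypts, -2.24 to -1.84 with a median of -2.12 in N1N2 crypts, and -2.21 to -1.87 with a median of -2.08 in controls. The groups overlapped fully, and the group means differed by at most 0.07. Intervals of the difference were -0.15 to 0.23 for N1N2 plus Lrp6 against N1N2 and -0.26 to 0.13 for N1N2 against control.

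Phlda3, a pleckstrin-homology protein that restrains the kinase Akt, had log2 ratios of -4.36, -3.35, -3.80, -3.84 and -3.61 in N1N2 plus Lrp6 crypts. Values were -3.27, -3.68, -3.12, -3.57 and -3.65 in N1N2 crypts and -3.52, -3.66, -3.41, -3.68 and -3.67 in control crypts. N1N2 plus Lrp6 replicate 1 was the lowest array, and the groups overlapped. The difference was -0.33 in N1N2 plus Lrp6 against N1N2 crypts (adjusted p = 0.168) and 0.13 in N1N2 against control crypts (adjusted p = 0.657). Without N1N2 plus Lrp6 replicate 2 the difference from N1N2 crypts was -0.44 and passed (adjusted p = 0.045).

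Aen, a nuclease that takes part in apoptosis, was read by 2 probes that lay within 0.14 of each other on every array. On the brighter probe the log2 ratios averaged -0.93 ± 0.22 in N1N2 plus Lrp6 crypts, -1.22 ± 0.085 in N1N2 crypts and -1.18 ± 0.29 in control crypts (SD, n = 5 each). The other probe averaged -1.01 ± 0.21, -1.27 ± 0.056 and -1.22 ± 0.27 in the same order. The difference between N1N2 plus Lrp6 and N1N2 crypts was 0.29 and 0.26 on the 2 probes (adjusted p = 0.149 and 0.167), and neither passed. In N1N2 against control crypts the differences were -0.04 and -0.05, with intervals of -0.32 to 0.23 and -0.31 to 0.20.

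Trp53inp1, a p53 cofactor with a part in autophagy, was read by 2 probes that disagreed. The brighter probe had log2 ratios of -1.84 to -1.68 in N1N2 plus Lrp6 crypts, -2.01 to -1.13 in N1N2 crypts and -1.73 to -1.47 in control crypts. The other probe was dim and lay 0.91 to 2.13 higher on the log2 scale on each of the 15 arrays. Their differences in N1N2 plus Lrp6 against N1N2 crypts were -0.23 (adjusted p = 0.248) and 0.09 (adjusted p = 0.56), of opposite sign. The brighter probe passed without N1N2 replicate 1, at -0.35 (adjusted p = 0.024), and with the arrays scaled to each other, at -0.39 (adjusted p = 0.043).

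Bax and Bbc3 act at the mitochondrion, Bax as the protein that opens its outer membrane and Bbc3 (PUMA) as the BH3-only protein that frees such effectors. Bax had log2 ratios of -1.09, -0.97, -0.95, -0.91 and -1.24 in N1N2 plus Lrp6 crypts, -1.22, -1.37, -1.26, -1.39 and -1.07 in N1N2 crypts, and -1.25, -1.22, -1.42, -1.44 and -1.22 in control crypts. Of the N1N2 plus Lrp6 arrays, 4 lay above 9 of the other 10, and the groups overlapped. Bax differed by 0.23 in N1N2 plus Lrp6 against N1N2 crypts (95% interval 0.048 to 0.41, adjusted p = 0.08) and by 0.28 against control crypts (95% interval 0.096 to 0.46, adjusted p = 0.192). The difference from N1N2 crypts passed without N1N2 replicate 5, at 0.28 (adjusted p = 0.038), or without N1N2 plus Lrp6 replicate 5, also at 0.28 (adjusted p = 0.034). With slide as a random block Bax passed against both groups, at 0.26 against N1N2 (adjusted p = 0.0082) and 0.31 against control (adjusted p = 0.0086). The estimated correlation within slides was negative there, at -0.18, which narrows the errors.

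Bbc3 had log2 ratios of -1.21, -0.88, -1.07, -0.98 and -1.15 in N1N2 plus Lrp6 crypts, -1.57, -1.09, -1.49, -1.31 and -1.35 in N1N2 crypts, and -1.40, -0.90, -1.44, -0.89 and -1.19 in control crypts. The control arrays covered most of the range of both other groups. The differences were 0.30 in N1N2 plus Lrp6 against N1N2 crypts (adjusted p = 0.108) and -0.20 in N1N2 against control crypts (adjusted p = 0.332). With slide as a random block the difference from N1N2 crypts was 0.28 and passed (adjusted p = 0.039).

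Of the Bcl-2 family members around Bax and Bbc3, 11 were tested. Of these, 1 rose and 2 fell in N1N2 plus Lrp6 against N1N2 crypts, beside 9.67% of all probes upward and 6.87% downward. In N1N2 against control crypts 2 rose and 0 fell, beside 6.2% upward and 5.23% downward. Bcl2, which blocks Bax, had log2 ratios of -0.33, -0.11, -0.20, -0.41 and -0.17 in N1N2 plus Lrp6 crypts, 0.19, 0.83, 0.55, 0.91 and 0.42 in N1N2 crypts, and -0.40, -0.13, -0.03, -0.33 and -0.03 in control crypts, with the N1N2 arrays above all others. It changed by -0.82 in N1N2 plus Lrp6 against N1N2 crypts (SE 0.13, adjusted p = 0.00096) and by 0.76 in N1N2 against control crypts (SE 0.13, adjusted p = 0.0015). Bcl2l2, which encodes the related protector Bcl-w, changed by -0.56 in N1N2 plus Lrp6 against N1N2 crypts (adjusted p = 0.0013) and by 0.45 in N1N2 against control crypts (adjusted p = 0.0059) on its brighter probe. A dimmer probe of the same gene gave -0.12 in the one comparison and 0.09 in the other and did not pass. With median centring Bcl2 passed in both comparisons, and Bcl2l2 in neither, at -0.44 in N1N2 plus Lrp6 against N1N2 (adjusted p = 0.059) and 0.28 in N1N2 against control (adjusted p = 0.25). Bid, which links death receptors to Bax, rose by 0.34 in N1N2 plus Lrp6 against N1N2 crypts (adjusted p = 0.0058), a call that ended with median centring (adjusted p = 0.062). On their brightest probes Bcl2l1, Mcl1 and Bak1 passed in no comparison, with differences from -0.22 for Mcl1 in N1N2 plus Lrp6 against N1N2 crypts to 0.17 for Bak1 in that comparison and for Mcl1 in N1N2 against control crypts. A dimmer Mcl1 probe had the opposite sign in both of these comparisons, so its direction is uncertain. A dimmer Bcl2l1 probe had the opposite sign in N1N2 plus Lrp6 against N1N2 crypts.

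Fas, the surface receptor of the extrinsic death pathway, had log2 ratios of 1.75, 2.06, 2.30, 2.53 and 2.39 in N1N2 plus Lrp6 crypts, 2.17, 2.53, 2.34, 2.59 and 2.32 in N1N2 crypts, and 2.05, 2.42, 2.69, 2.23 and 2.04 in control crypts. The groups overlapped, and the differences were -0.19 in N1N2 plus Lrp6 against N1N2 crypts (adjusted p = 0.475) and 0.11 in N1N2 against control crypts (adjusted p = 0.71). Immune cells also carry Fas, and the immune marker mean was 1.73 in N1N2 plus Lrp6 crypts, 1.75 in N1N2 crypts and 2.03 in control crypts. The part of immune cells in the Fas values was not tested. Of 7 genes of the Fas pathway, 1 rose in N1N2 plus Lrp6 against N1N2 crypts, beside 9.67% of all probes upward. In N1N2 against control crypts 0 passed, beside 11.4% of all probes, and 2 had an unadjusted p under 0.05 in limma, beside 26.4%. The gene that rose was Fadd, the adaptor of the receptor, with a change of 0.65 (SE 0.12, adjusted p = 0.0023). Fasl, the ligand, differed by 0.15 there and by -0.62 in N1N2 against control crypts, without passing (adjusted p = 0.691 and 0.057).

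Perp, a membrane protein of desmosomes, had log2 ratios of 2.69, 3.24, 3.49, 3.51 and 3.34 in N1N2 plus Lrp6 crypts, 3.66, 3.30, 3.33, 3.23 and 3.19 in N1N2 crypts, and 3.36, 3.38, 3.74, 3.20 and 3.03 in control crypts. N1N2 plus Lrp6 replicate 1 was the lowest, and the 3 groups otherwise covered the same range. The interval of the difference was -0.42 to 0.25 for N1N2 plus Lrp6 against N1N2 crypts and -0.33 to 0.33 for N1N2 against control crypts. Of 6 other desmosome genes, 0 passed in these comparisons, beside 16.5% and 11.4% of all probes. In limma 0 of the 6 had an unadjusted p under 0.05, beside 29.1% and 26.4% of all probes. Their median changes were -0.24 in N1N2 plus Lrp6 against N1N2 crypts and 0.13 in N1N2 against control crypts. The plot of the changes gives the interval of each of the 12 probes.

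**Figure D2:**
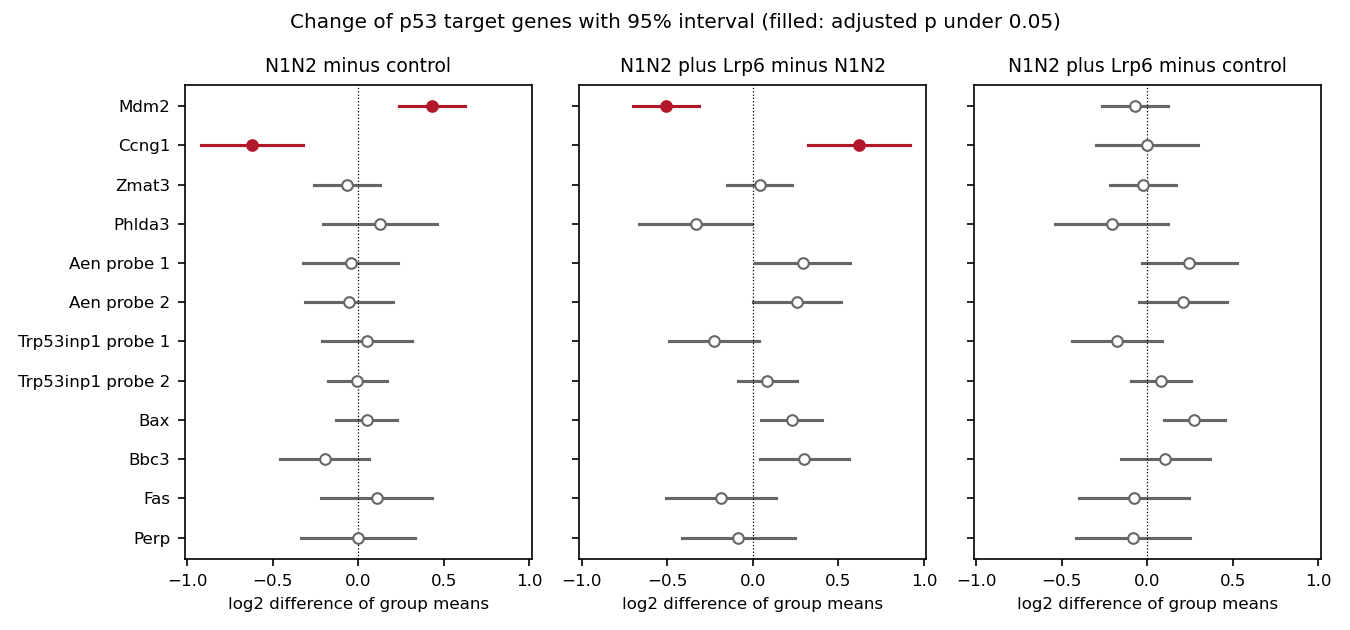
Log2 difference of group means (x axis) with 95% interval for the 12 probes of the p53 target genes (y axis), for N1N2 minus control, N1N2 plus Lrp6 minus N1N2 and N1N2 plus Lrp6 minus control. Filled red points passed an adjusted p of 0.05 over all 28488 probes. Mdm2 (0.43 and -0.50) and Ccng1 (-0.62 and 0.62) are filled in the left and middle panels, and no point is filled in the right panel.

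Around these 10 genes, 53 further genes of the p53 network were listed, of which 50 were tested, and Eda2r, Dram1 and Rrm2b fell below the filter on dim probes. In N1N2 plus Lrp6 against N1N2 crypts 5 rose and 7 fell, which is 24% beside 16.5% of all probes, with a median change of -0.01. In N1N2 against control crypts 9 rose and 3 fell, again 24%, beside 11.4% of all probes, with a median of -0.01. For this and the other lists, genes were counted by their brightest probe, and the shares are of all kept probes, named or not. The lists were also chosen with earlier results of these data known, so the shares set side by side are no test of the network. Between N1N2 plus Lrp6 and control crypts 0 of the 50 passed in limma, beside 0.358% of all probes. There 5 had an unadjusted p under 0.05, beside 12.8% of all probes. With median centring, 5 rose and 2 fell in N1N2 plus Lrp6 against N1N2 crypts, and 1 rose and 2 fell in N1N2 against control crypts. Fewer of all probes also passed with median centring in N1N2 against control crypts, as given at the end. The shares above therefore do not apply to these counts. With slide as a block 0 of the 50 passed in N1N2 against control crypts in limma, 12 had an unadjusted p under 0.05, and 117 of all probes passed. The unadjusted share of all probes was not counted for that setting.

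Among 15 regulators of p53, Trp53 itself rose in N1N2 plus Lrp6 against N1N2 crypts. Its log2 ratios were 0.37, -0.24, -0.16, 0.28 and 0.20 in N1N2 plus Lrp6 crypts, -0.59, -0.14, -0.19, -0.43 and -0.41 in N1N2 crypts, and -0.23, 0.23, -0.08, 0.08 and 0.25 in control crypts. The groups overlapped in part. Trp53 changed by 0.44 in N1N2 plus Lrp6 against N1N2 crypts (SE 0.13, adjusted p = 0.034), a call kept in 12 of 23 alternatives. In N1N2 against control crypts its difference of -0.40 did not pass (SE 0.13, adjusted p = 0.063). Mdm4, the partner of Mdm2 that masks p53, fell by 0.44 on the log2 scale in N1N2 plus Lrp6 against N1N2 crypts (adjusted p = 0.019) and rose by 0.43 in N1N2 against control crypts (adjusted p = 0.028), on its brighter probe. A dimmer Mdm4 probe gave -0.29 in the one comparison (adjusted p = 0.075) and 0.28 in the other (adjusted p = 0.097). Trp53bp1, which binds p53 and marks DNA breaks, changed by -0.41 (adjusted p = 0.0046) in N1N2 plus Lrp6 against N1N2 crypts and by 0.30 (adjusted p = 0.029) in N1N2 against control crypts. With median centring Trp53bp1 passed in neither comparison, at -0.32 in N1N2 plus Lrp6 against N1N2 and 0.16 in N1N2 against control, and Mdm4 only in N1N2 plus Lrp6 against N1N2 crypts. Of the 15 regulators, 1 rose and 2 fell in N1N2 plus Lrp6 against N1N2 crypts, beside 9.67% of all probes upward and 6.87% downward. In N1N2 against control crypts 2 rose and 0 fell, beside 6.2% upward and 5.23% downward. The other 12 regulators, among them Atm, Atr, Chek1 and Chek2, did not pass in either comparison.

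Cdkn1a, the CDK inhibitor p21 and the best known growth arrest target of p53, did not pass in any comparison. Its log2 ratios were -0.20, 0.78, 0.39, 0.65 and 0.14 in N1N2 plus Lrp6 crypts, 0.67, -0.08, 0.16, 0.05 and 0.54 in N1N2 crypts, and 0.49, -0.09, 0.41, -0.12 and 0.08 in control crypts, with wide spread in every group on this probe. The differences were 0.09 in N1N2 plus Lrp6 against N1N2 crypts (95% interval -0.33 to 0.50) and 0.12 in N1N2 against control crypts (95% interval -0.30 to 0.53). With median centring the difference between N1N2 and control was -0.07, and the sign between N1N2 plus Lrp6 and N1N2 crypts turned in 2 of 23 alternatives. A dimmer Cdkn1a probe varied less between arrays and differed by -0.05 in N1N2 plus Lrp6 against N1N2 crypts (95% interval -0.22 to 0.12) and by 0.01 in N1N2 against control crypts (95% interval -0.16 to 0.17). Of the 12 growth arrest targets, 0 rose and 1 fell in N1N2 plus Lrp6 against N1N2 crypts, beside 9.67% of all probes upward and 6.87% downward. In N1N2 against control crypts 4 rose and 0 fell, beside 6.2% upward and 5.23% downward. The 4 were Psrc1, a spindle protein (0.51, adjusted p = 0.011), Plk2, a polo-like kinase (0.36, adjusted p = 0.048), Gadd45a, a stress response protein (0.36, adjusted p = 0.0082), and Btg2, an antiproliferative cofactor (0.33, adjusted p = 0.0088). Btg2 was also the 1 that fell in N1N2 plus Lrp6 against N1N2 crypts, by 0.24 on the log2 scale (adjusted p = 0.031). With median centring none of these calls held, at 0.37 for Psrc1, 0.21 for Plk2, 0.16 for Gadd45a and 0.14 for Btg2 in N1N2 against control crypts (adjusted p from 0.16 to 0.61), and -0.07 for Btg2 in N1N2 plus Lrp6 against N1N2 crypts. The Plk2 call was kept in 9 of 25 alternatives, where its value ran from 0.12 to 0.80.

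The 9 further cell death targets tested held 1 that rose and 1 that fell in N1N2 plus Lrp6 against N1N2 crypts, beside 9.67% of all probes upward and 6.87% downward. In N1N2 against control crypts 1 rose, beside 6.2% upward. Siva1, a proapoptotic adaptor, rose by 0.53 (SE 0.15, adjusted p = 0.026) in N1N2 plus Lrp6 against N1N2 crypts, where replicate 4 of the N1N2 plus Lrp6 group had no value, and a dimmer probe rose by 0.58 (adjusted p = 0.014). Apaf1, the scaffold of the apoptosome, changed in the same comparison by -0.39 (adjusted p = 0.021). Trp53i11 changed by 0.56 in N1N2 against control crypts (adjusted p = 0.011), where a dimmer probe gave 0.16 and did not pass (adjusted p = 0.184). With median centring Apaf1 was at -0.24 (adjusted p = 0.32) and Trp53i11 at 0.37 (adjusted p = 0.22), and neither passed. The Siva1 call on the brighter probe was kept in 16 of 23 alternatives. It did not pass with the arrays scaled to each other, at 0.26 (adjusted p = 0.42 in limma). Pmaip1 (Noxa), the BH3-only partner of Bbc3 in the response, differed by 0.12 in N1N2 plus Lrp6 against N1N2 crypts (adjusted p = 0.56) and by -0.28 in N1N2 against control crypts (adjusted p = 0.134), and did not pass.

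Of 6 DNA repair targets, 1 rose and 2 fell in N1N2 plus Lrp6 against N1N2 crypts, beside 9.67% of all probes upward and 6.87% downward. In N1N2 against control crypts 1 rose and 1 fell, beside 6.2% upward and 5.23% downward. Polk, a polymerase that copies past DNA lesions, was read by 2 probes that disagreed. On the brighter probe the log2 ratios were -1.02, -1.16, -0.97, -0.97 and -0.86 in N1N2 plus Lrp6 crypts, -0.64, -0.44, -0.56, -0.46 and -0.46 in N1N2 crypts, and -0.90, -1.02, -1.09, -0.82 and -0.89 in control crypts, with all N1N2 arrays above all others. It changed by -0.48 in N1N2 plus Lrp6 against N1N2 crypts (adjusted p = 0.00096) and by 0.43 in N1N2 against control crypts (adjusted p = 0.0018). The dimmer probe had the opposite sign in both comparisons, at 0.04 in N1N2 plus Lrp6 against N1N2 crypts (adjusted p = 0.845) and -0.30 in N1N2 against control crypts (adjusted p = 0.045), so the direction for Polk is uncertain. Pcna, the clamp of DNA replication and repair and also one of the cell cycle genes above, changed by 0.80 in N1N2 plus Lrp6 against N1N2 crypts (adjusted p = 0.0045) and by -0.78 in N1N2 against control crypts (adjusted p = 0.0065). Ercc5, an endonuclease of nucleotide excision repair, fell by 0.37 on the log2 scale in N1N2 plus Lrp6 against N1N2 crypts (adjusted p = 0.013), which did not pass with median centring (-0.36, adjusted p = 0.079).

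Among 8 metabolic targets, 2 rose and 1 fell in N1N2 plus Lrp6 against N1N2 crypts, beside 9.67% of all probes upward and 6.87% downward. In N1N2 against control crypts 1 rose and 2 fell, beside 6.2% upward and 5.23% downward, and the same 3 genes passed in both. Gls2, a mitochondrial glutaminase, rose by 0.88 in N1N2 plus Lrp6 against N1N2 crypts (adjusted p = 0.0028) and fell by 0.53 on the log2 scale in N1N2 against control crypts (adjusted p = 0.046). Slc19a2, a thiamine transporter, rose by 0.37 (adjusted p = 0.025) in the comparison with the Lrp6 antibody and fell by 0.51 (adjusted p = 0.0061) in the comparison with control. Ddit4, an inhibitor of mTORC1, fell by 0.62 (adjusted p = 0.0089) with the Lrp6 antibody added and rose by 0.60 (adjusted p = 0.015) in N1N2 against control crypts. With median centring Ddit4 passed in neither comparison, at -0.21 in N1N2 plus Lrp6 against N1N2 (adjusted p = 0.65) and 0.28 in N1N2 against control (adjusted p = 0.5), and Slc19a2 only in N1N2 against control crypts. The Gls2 call in N1N2 against control crypts was kept in 10 of 25 alternatives, and that in N1N2 plus Lrp6 against N1N2 crypts in 23 of 23. The plot by list shows both directions within the lists.

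**Figure D3:**
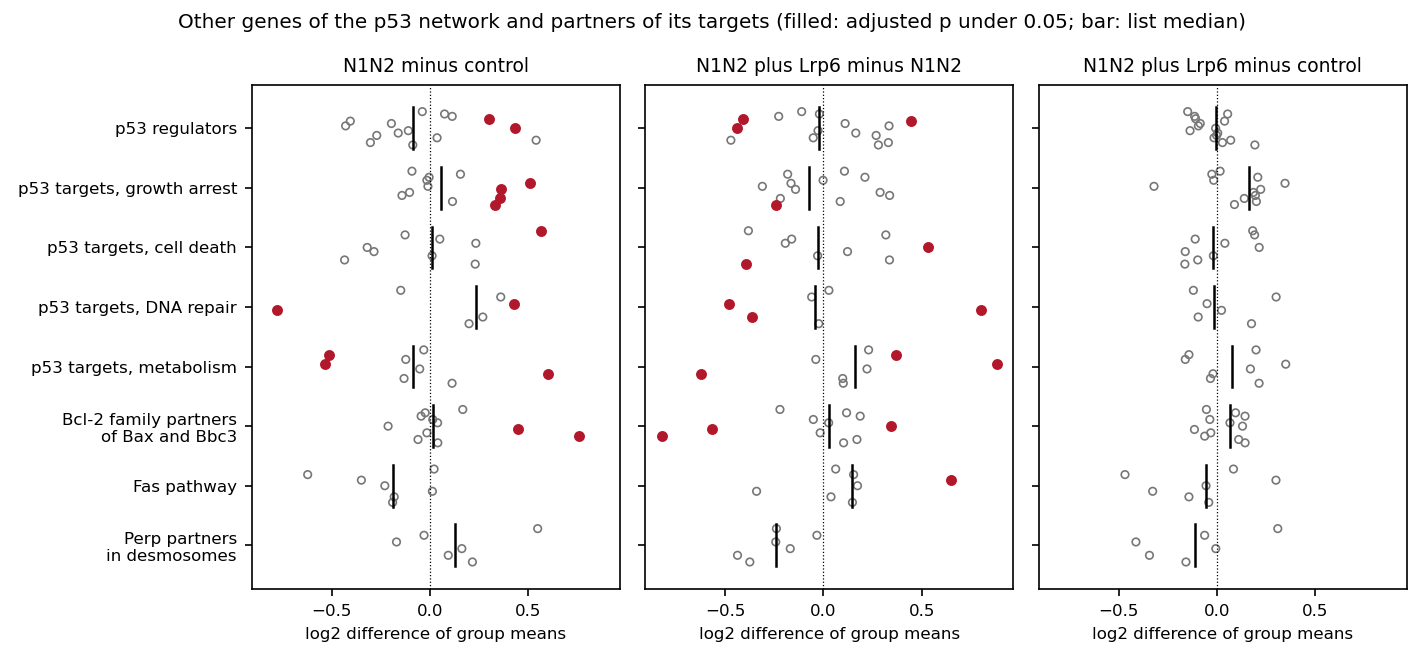
Log2 difference of group means (x axis) for each gene of 8 lists around the p53 target genes (y axis), for N1N2 minus control, N1N2 plus Lrp6 minus N1N2 and N1N2 plus Lrp6 minus control. Each point is 1 gene, filled where the adjusted p was under 0.05, and the bar is the median of the list. Filled points lie on both sides of 0 in the left and middle panels, as for Pcna at -0.78 and 0.80 and Bcl2 at 0.76 and -0.82, and the right panel holds none.

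In N1N2 plus Lrp6 against control crypts, where none of the 10 genes passed, the differences ran from -0.21 for Phlda3 to 0.28 for Bax. The 95% intervals of the 10 genes there reached from -0.54 to 0.52, so changes of that size were not excluded for the least precise probes. In N1N2 against control crypts the 8 genes that did not pass differed by -0.20 to 0.13, and 2 of the 10 genes, Mdm2 and Ccng1, had an unadjusted p under 0.05, beside 26.4% of all probes. These 8 differed in N1N2 plus Lrp6 against N1N2 crypts by -0.33 to 0.30, and 6 of the 10 genes had an unadjusted p under 0.05, beside 29.1% of all probes.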

How the data were processed

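Per the file headers, the 2-colour Agilent arrays went through Feature Extraction 11.0.1.1, and probes were designed on mm9. The authors deposited scanner files that hold, per spot and channel, a median intensity, a median intensity of the local background and quality flags, with the scanner's log10 ratio (red over green, background-subtracted and dye-normalized). A further deposited file holds log2 values, for which the submitters' processing notes name R 3.0.0 and limma 3.6.7. Per the labels' protocols, crypt RNA was Cy5 (red) and the reference Cy3 (green), with no dye swap.

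Calculations used R 4.3.3, limma 3.58.1 and data.table (version 1.17.8). Between 306 and 642 of the 44397 spots per array carried flags for non-uniformity (spot or local background) or spot population outliers and were left out. Background was corrected on median intensities with normexp (offset 50), loess within each array normalized the log2 ratios (control spots had weight 0), and spots of a probe were averaged. Of 39429 probes, 28488 were kept, namely those whose red signal was well above background on 4 or 5 arrays of any group. RefSeq accessions named 26581 probes, and 12848 stayed unnamed. One limma fit of the 15 arrays (lmFit, eBayes) gave two-sided p-values, with Benjamini-Hochberg adjustment over the kept probes and a threshold of 0.05. The number of arrays limits the precision. The brightest probe stood for a gene in counts. The fit was tested on simulated data.

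The genes and lists were chosen with earlier results of these data known, so counts over them are not independent evidence. All 10 target genes, Trp53, Cdkn1a, Mdm4 and the genes of a list that passed (at most the 4 with the largest change) were named, with the 3 genes most correlated with Ccng1. Bcl2l1, Mcl1, Bak1, Fasl, Pmaip1, Atm, Atr, Chek1, Chek2, Krt18, Lgr5, Dcn, Lum, Cd3e, Gzma, Itgam, Mki67, Ccne1 and Top2a were named after their values were seen. Alternatives changed the normalization, background, flags, filter, source of values, slide or replicate block, samples in the fit, or left out 1 array.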

Additional observations from a re-analysis of the deposited data

Results flagged for a closer look

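Ccng1 in control replicate 3 lay apart from its group, with a log2 ratio of -1.53 against -1.28 to -1.21 on the other 4 control arrays. Its gap to the nearest array was 0.77 of the range of the group, above the critical value of 0.71 for 5 samples. It still lay above all 5 N1N2 arrays, and Ccng1 kept its call without it. This was 1 of 36 groups of 5 arrays examined over the 12 probes, where chance flags about 1 in 20.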

How the results depend on the processing

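No change of a p53 target gene that passed took the opposite sign in any alternative run. In N1N2 against control crypts, 2 of the 10 genes passed, and 0 with median centring, with slide as a block and on the shared slide alone (limma, unadjusted p under 0.05 in 1, 2 and 2). The unadjusted share of all probes was not counted under these alternatives. With the Lrp6 antibody added, 1 passed against N1N2 crypts with median centring and 4 with slide as a random block, and 1 against control crypts with that block. Leaving out each array gave 2 to 3 genes in N1N2 plus Lrp6 against N1N2, 0 to 0 against control, and 2 to 2 in N1N2 against control crypts. Of all probes, 3257 passed in N1N2 against control crypts, against 1457 with median centring, 2151 with the scanner's log ratio, 117 with slide as a block, 3 on the shared slide and 4970 with only those 2 groups in the fit. In N1N2 plus Lrp6 against N1N2 crypts 4713 passed, against 2702 with flagged spots kept and 8327 with the random block. In N1N2 plus Lrp6 against control crypts 102 passed, against 34 with median centring, 63 with arrays scaled, 181 with the scanner's log ratio, 51 with flagged spots kept, 3270 with the random block and 54 with only those groups. Leaving out an array gave 1747 (without control replicate 2) to 3256 in N1N2 against control, with 1756 without control replicate 5 and 1815 without N1N2 replicate 4. It gave 2937 (without N1N2 replicate 4) to 5624 in N1N2 plus Lrp6 against N1N2, and 27 (without control replicate 2 or 5) to 422 (without N1N2 plus Lrp6 replicate 5) in N1N2 plus Lrp6 against control, where each array but N1N2 plus Lrp6 replicate 1 moved the count by over 1.5 times. The share of calls upward was 58.5% in N1N2 plus Lrp6 against N1N2 and 77.2% with median centring. In N1N2 plus Lrp6 against control it was 54.9%, against 68.3% with arrays scaled, 38.1% with the scanner's log ratio and 82.4% with flagged spots kept, and in N1N2 against control 54.3% against 68% with flagged spots kept. The causes were not tested, and the shared slide held fewer arrays than the full fit. Same-numbered deviations correlated at -0.01 to 0.62 between N1N2 and control arrays, -0.43 to 0.08 between N1N2 plus Lrp6 and N1N2 arrays and -0.26 to -0.001 between N1N2 plus Lrp6 and control arrays, so not every pair was over 0.1 and the numbers were not taken as pairing the samples. With the replicate block 32 probes passed in N1N2 plus Lrp6 against control crypts and 0 of the 10 genes. In N1N2 plus Lrp6 against N1N2 crypts 3 passed with it, with Bbc3 at 0.30 (adjusted p = 0.022) beside Mdm2 and Ccng1, and in N1N2 against control crypts Mdm2 and Ccng1. Quantile normalization of average intensity leaves the log ratios as they are. Slide as a fixed block was not run for N1N2 plus Lrp6, which shared no slide.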
